A study of Mus musculus with 8 samples.

Results

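The expression of 10 genes of macrophage uptake was followed in CD11c-positive splenocytes from lupus-prone and control mice: Marco, Msr1, Cd36, Scarb1, Cd209b, Mrc1, Stab2, Vcam1, Adgre1 and Cd5l. They were chosen by name as receptors and surface molecules of red pulp and marginal zone macrophages, with the secreted protein Cd5l, and all 10 were among the 13786 protein-coding genes of the deposited count table. RNA-seq counts were compared between 4 C57BL/6 and 4 B6.SLE123 mice, all female, untreated and 7 weeks old. B6.SLE123 mice carry the Sle1, Sle2 and Sle3 susceptibility intervals of a lupus-prone New Zealand strain on the C57BL/6 background, and both strains came from The Jackson Laboratory. The samples are labelled as dendritic cells, and the cells were selected on CD11c, which some macrophages, B cells and other leukocytes also carry.

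Macrophages of the spleen clear aged red cells, apoptotic cells, microbes and modified lipoproteins from blood. Scavenger receptors of class A (Marco, Msr1) and class B (Cd36, Scarb1) bind lipoproteins and bacterial surfaces, lectins such as Mrc1 and Cd209b bind sugars, and Stab2 takes up hyaluronan. Marco and Cd209b are known from macrophages of the marginal zone, and Vcam1, Adgre1 (F4/80), Mrc1 and Cd5l from those of the red pulp. Cd5l is a secreted protein of the scavenger receptor cysteine-rich family and a known target of the liver X receptors.

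Of these genes, 9 were lower and 1 was higher in B6.SLE123 mice. A gene counts as called where its adjusted p is below 0.05 in edgeR's quasi-likelihood test over all 13786 genes, and 26.6% of all genes were called lower and 26.7% higher. Stab2, Mrc1, Vcam1, Cd5l, Msr1, Marco, Adgre1 and Cd209b fell by more than 2-fold, which 8.29% of all genes did, Scarb1 fell by less, and Cd36 rose. In 9 of the 10 genes, all but Cd209b, no value of one strain lay within the range of the other, which held in the lower direction for 24.5% and in the higher direction for 24.4% of all genes, 48.9% in all. The median log2 fold change, given throughout as B6.SLE123 over C57BL/6, was -2.26 over the 10 genes and -0.0019 over all genes. Together the 10 genes took between 0.473% and 0.589% of a mouse's counts in C57BL/6 and between 0.0960% and 0.156% in B6.SLE123 mice. In RNA from a mixed preparation, fewer cells of a type and less RNA per cell cannot be told apart.

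The 8 libraries held between 25563070 and 37367094 counts per mouse, and the factors that scaled them lay between 0.994 and 1.011. Marker lists were chosen with earlier results of these data known, and over all genes 26.6% were called lower and 26.7% higher. Of 12 marker genes of red pulp macrophages, 12 were lower, and their summed level was between 8950 and 11292 CPM, the read count scaled to the TMM-adjusted library total, in C57BL/6 and between 1280 and 2438 CPM in B6.SLE123 mice. Csf1r, the receptor of a macrophage growth factor, was the most abundant of them. All 7 dendritic cell genes were higher by less than 2-fold, with sums of 12351 to 14181 CPM and 15295 to 16151 CPM, and H2-Ab1 led them. The label as dendritic cells therefore covers preparations that held macrophage transcripts as well, at levels that moved with the strain. Of 9 endothelial genes in the table, 1 was lower (Pecam1, at 197 ± 10.4 and 123 ± 13.01 CPM, SD, n = 4) and 4 were higher, and Lyve1, Clec14a and Emcn have no row. Endothelial sums were lower, at 249 to 269 CPM in C57BL/6 and 175 to 205 CPM in B6.SLE123 mice. Most of the endothelial genes called higher had a mean of 0.85 CPM or less in both strains. Of 6 stromal genes, 5 were lower, with sums of 6.96 to 50.8 CPM and 1.69 to 4.999 CPM. The part of these cells in the results on Stab2 and Vcam1, which such cells also express, was not tested. Nor was it tested which cells of the preparation gave the reads of Cd36 and the other genes.

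**Figure D1:**
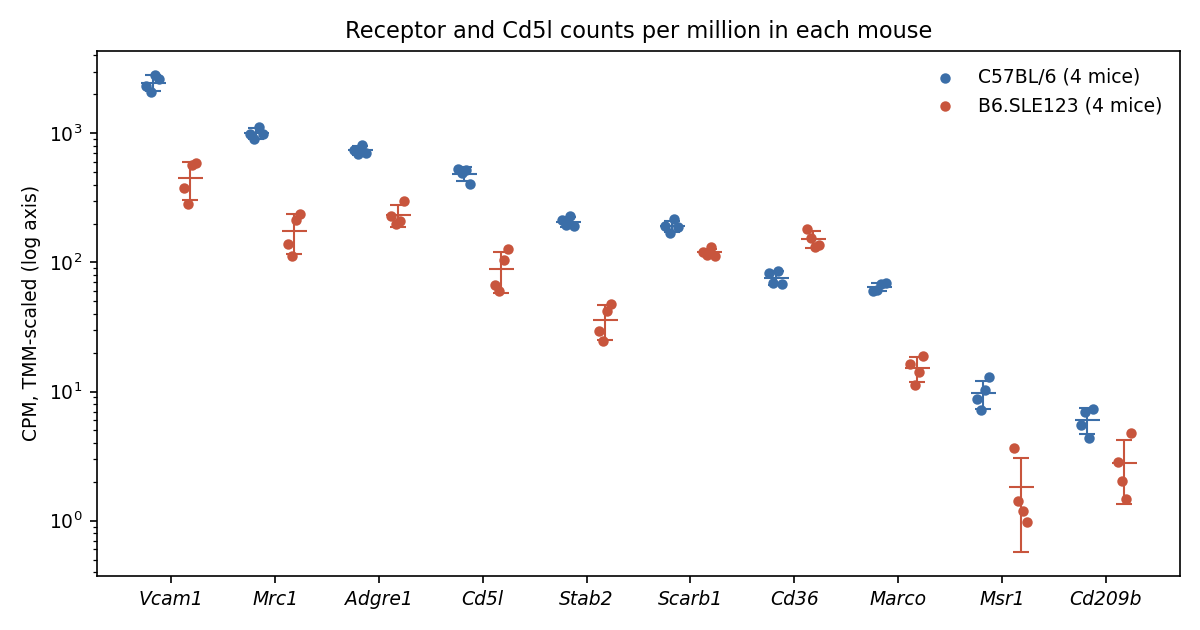
CPM of each gene (log axis) in the 4 C57BL/6 mice (blue) and the 4 B6.SLE123 mice (red), with the mean and SD as bars. Cd36 alone lies higher in B6.SLE123 mice, and the strains overlap only in Cd209b, between 4.39 and 4.76 CPM.

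Marco and Msr1 encode the class A scavenger receptors among the genes followed. Marco (chr1:120474538-120505024, minus strand, mm10) binds bacteria and unopsonized particles. It was at 59.5, 61.2, 68.1 and 68.9 CPM in the C57BL/6 mice and at 16.4, 11.2, 14.2 and 19.0 CPM in the B6.SLE123 mice. The highest B6.SLE123 value was far below the lowest C57BL/6 value, and the log2 fold change was -2.10 (SE 0.13, adjusted p = 5.76e-07, edgeR).

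Msr1 (chr8:39581685-39642673, minus strand), whose product takes up acetylated and oxidized low-density lipoprotein, was the lowest of the 10 per kilobase. It had 231, 187, 336 and 388 reads in the C57BL/6 mice and 115, 53, 40 and 25 reads in the B6.SLE123 mice. These correspond to 8.74, 7.18, 10.2 and 12.8 CPM against 3.64, 1.42, 1.18 and 0.984 CPM. B6.SLE123 replicate 1 stood above the other 3 of its strain, though below all C57BL/6 mice. The log2 fold change was -2.43 (SE 0.34, adjusted p = 0.00014, edgeR) with all mice and -3.01 without B6.SLE123 replicate 1.

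Cd36 and Scarb1 are the class B receptors among the genes followed, both on chromosome 5, and they moved in opposite directions. Cd36 (chr5:17781690-17888801, minus strand) binds long-chain fatty acids, oxidized lipoproteins and apoptotic cells. Its level was 83.1, 69.0, 85.3 and 67.8 CPM in the C57BL/6 mice and 183, 156, 131 and 137 CPM in the B6.SLE123 mice. All B6.SLE123 mice were above all C57BL/6 mice, and the gene rose 1.99-fold (log2 0.99, SE 0.11, adjusted p = 2.60e-05, edgeR). A larger log2 rise was seen in 3.37% of all genes. Scarb1 (chr5:125277087-125341094, minus strand), the receptor for high-density lipoprotein, was at 190.3, 169, 216 and 189 CPM in C57BL/6 and at 119.6, 115, 131 and 113 CPM in B6.SLE123 mice. Its log2 fold change was -0.68 (SE 0.073, adjusted p = 2.07e-05, edgeR), and its B6.SLE123 values varied least, with a coefficient of variation of 6.77% against 15.3% to 68.3% in the other 9 genes.

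Among the lectins, Mrc1 (chr2:14229392-14332057, plus strand) is the mannose receptor, which clears glycoproteins with exposed mannose. It was at 983, 899, 1127 and 995 CPM in the C57BL/6 mice and at 139, 113, 214 and 238 CPM in the B6.SLE123 mice. The strains lay far apart, with a log2 fold change of -2.51 (SE 0.21, adjusted p = 3.03e-06, edgeR). The microRNA gene Mir511 lies in an intron of Mrc1. Cd209b (chr8:3917655-3926844, minus strand) encodes SIGN-R1, the lectin with which marginal zone macrophages bind microbial polysaccharides. It had 146, 182, 144 and 222 reads in the C57BL/6 mice and 90, 75, 50 and 121 reads in the B6.SLE123 mice, or 5.52, 6.99, 4.39 and 7.35 CPM against 2.85, 2.02, 1.48 and 4.76 CPM. The strains overlapped here, since B6.SLE123 replicate 4 was above C57BL/6 replicate 3. The log2 fold change was -1.16 (SE 0.30, adjusted p = 0.00804, edgeR), and it was -0.94 without B6.SLE123 replicate 3 and -1.53 without B6.SLE123 replicate 4.

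Stab2 (chr10:86841198-87008025, minus strand) encodes a large receptor for hyaluronan that also binds phosphatidylserine on dying cells. It was at 211, 196, 230.2 and 190.2 CPM in the C57BL/6 mice and at 29.6, 24.5, 42.2 and 47.3 CPM in the B6.SLE123 mice. The strains did not overlap, and the log2 fold change was -2.53 (SE 0.18, adjusted p = 1.08e-06, edgeR), which did not stand apart from that of Mrc1. A larger log2 fall was seen in 1.77% of all genes. Exons of Stab2 overlap the antisense genes Gm16268 and Gm16271, and the strand setting of the counting is not given in the sources used here, so reads from these genes cannot be told apart.

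The surface molecules Vcam1 and Adgre1 were among the most abundant. Vcam1 (chr3:116109949-116129688, minus strand), the adhesion molecule bound by the integrins of Itga4 and Itga9, ranked 15th of all genes by mean CPM in C57BL/6 mice. Its level was 2333, 2086, 2844 and 2619 CPM in the C57BL/6 mice and 377, 283, 568 and 586 CPM in the B6.SLE123 mice. The log2 fold change was -2.45 (SE 0.21, adjusted p = 4.21e-06, edgeR), with some exons overlapped by the antisense gene Gm43109. Adgre1 (chr17:57358691-57483527, plus strand) encodes F4/80, the surface antigen by which mouse macrophages are commonly identified. It was at 745, 687, 812 and 705 CPM in C57BL/6 and at 229, 199, 207 and 297 CPM in B6.SLE123 mice. No values overlapped, and it fell by 1.66 on the log2 scale (SE 0.11, adjusted p = 1.04e-06, edgeR).

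Cd5l (chr3:87357881-87371073, plus strand), also called AIM, is secreted by tissue macrophages and binds to lipids and to immunoglobulin M. It was at 525, 493, 523 and 401 CPM in the C57BL/6 mice and at 67.1, 59.6, 104 and 127 CPM in the B6.SLE123 mice. B6.SLE123 replicates 1 and 2 were the lowest, as they were for Mrc1, Stab2 and Vcam1. The log2 fold change was -2.44 (SE 0.21, adjusted p = 4.52e-06, edgeR), and the values did not overlap.

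On a scale of CPM per kilobase of merged exons, which allows levels of different genes to be compared, the order in C57BL/6 mice was Vcam1 (279), Cd5l (238), Adgre1 (228), Mrc1 (157), Marco (33.5), Stab2 (23.6), Scarb1 (22.5), Cd36 (21.3), Cd209b (2.87) and Msr1 (1.54). Neighbours whose mice overlapped in this order were Vcam1 and Cd5l, Cd5l and Adgre1, Stab2 and Scarb1, and Scarb1 and Cd36. In B6.SLE123 mice the order was Adgre1 (71.9), Vcam1 (51.1), Cd5l (43.9), Cd36 (42.2), Mrc1 (27.6), Scarb1 (14.1), Marco (7.89), Stab2 (4.10), Cd209b (1.31) and Msr1 (0.285). Neighbours among the first 5 overlapped there, and Mrc1 did not overlap with Scarb1. Cd36 had a lower mean than Mrc1, Marco, Stab2 and Scarb1 in the control strain, where its mice overlapped with those of Stab2 and Scarb1, and a higher mean than these in B6.SLE123 mice, where they overlapped with those of Mrc1.

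Because macrophage markers as a group fell with the strain, each gene was also set against a macrophage reference in the same mouse, the geometric mean count of Csf1r, Mertk, Fcgr1, Slc40a1, Hmox1 and Spic. These genes mark red pulp and other macrophages: Mertk recognizes apoptotic cells, Fcgr1 binds immunoglobulin, Slc40a1 exports iron, Hmox1 degrades heme, and Spic is a transcription factor of red pulp macrophages. All 6 are also among the red pulp macrophage markers above, and they were known to be lower in these mice when they were chosen. The reference was at 690, 634, 774 and 665 CPM in the C57BL/6 mice and at 101, 77.3, 140 and 162 CPM in the B6.SLE123 mice, a range of 10.02-fold over the 8 mice. Scaling by it moved the median of all genes up by 2.63 on the log2 scale, and 96.0% of all genes were then called different, 95.6% higher and 0.377% lower.

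The ratio of Stab2, Mrc1, Vcam1 and Cd5l to this reference varied little over the 8 mice. Stab2 was between 28.6% and 30.9% of the reference in C57BL/6 and between 29.2% and 31.7% in B6.SLE123 mice, a 1.11-fold range. Mrc1 was between 142% and 150% and between 137% and 153%, a range of 1.12-fold while its CPM ranged 9.99-fold. Vcam1 stood at 329% to 394% against 362% to 406%, and Cd5l at 60.3% to 77.8% against 66.2% to 78.4%. The strains overlapped in all 4 of these ratios. Relative to the reference, the log2 fold changes were 0.0048 for Stab2 (95% interval -0.53 to 0.54), 0.0087 for Mrc1 (-0.53 to 0.55), 0.072 for Cd5l (-0.47 to 0.61) and 0.077 for Vcam1 (-0.45 to 0.60). These intervals come from the edgeR fit over all genes, which moderates variances across genes. They are wider than the spread of these 4 ratios between mice.

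Adgre1, Scarb1, Cd209b and Cd36 were higher relative to the reference in B6.SLE123 mice, as 95.6% of all genes were. The ratios take in reads from any cell of the preparation, so they are not levels per macrophage. Adgre1 was at 105% to 108% of the reference in C57BL/6 and at 149% to 257% in B6.SLE123 mice, a log2 difference of 0.93 (adjusted p = 0.000809, edgeR with the reference as library size). Scarb1 went from between 26.7% and 28.4% to between 69.6% and 148%, with a log2 difference of 1.96 (adjusted p = 1.02e-11, edgeR). The ratio of Cd36 rose from between 10.2% and 12.05% to between 84.6% and 201%, a log2 difference of 3.67 (adjusted p = 5.41e-31, edgeR). In these 3 ratios the strains did not overlap, which held in the higher direction for 93.7% of all genes, with p = 0.0286 in exact two-sided permutation tests, the smallest value 4 mice against 4 can give. Cd209b was at 0.567% to 1.10% against 1.06% to 2.94%, with a log2 difference of 1.39 (adjusted p = 5.77e-06, edgeR) although the strains overlapped and the exact permutation p for the ratios was 0.0857.

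Marco and Msr1 were less settled. Marco was at 8.63% to 10.4% of the reference in C57BL/6 and at 10.2% to 16.1% in B6.SLE123 mice. Its log2 difference of 0.49 (95% interval -0.050 to 1.02, adjusted p = 0.0783, edgeR) passed the threshold without B6.SLE123 replicate 2 (0.44, adjusted p = 0.0423), 3 (0.59, adjusted p = 0.0486) or 4 (0.54, adjusted p = 0.0289), and with DESeq2 (adjusted p = 0.0286). Msr1 was at 1.13% to 1.93% in C57BL/6 and anywhere from 0.608% to 3.59% in B6.SLE123 mice. Its log2 difference was 0.26 (95% interval -0.33 to 0.86, adjusted p = 0.398, edgeR) with all mice, -0.39 without B6.SLE123 replicate 1 and -0.074 with all mice by limma-voom, and none of these passed the test.

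**Figure D2:**
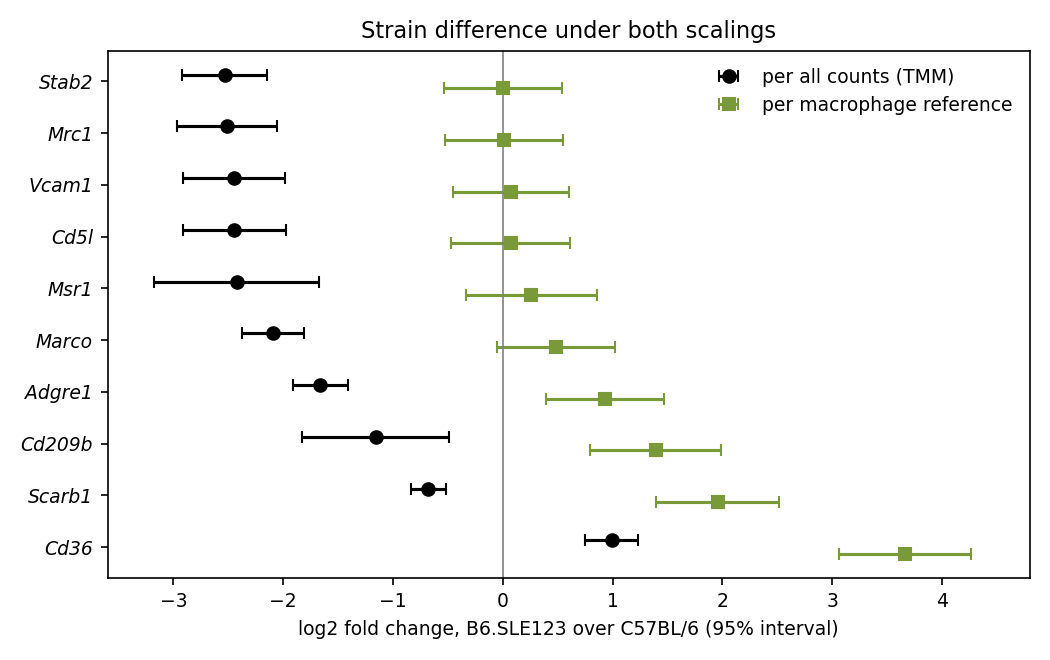
Log2 fold change of each gene, B6.SLE123 over C57BL/6, with its 95% interval, per all counts (black circles) and per macrophage reference (green squares). Stab2, Mrc1, Vcam1 and Cd5l move from between -2.53 and -2.44 to between 0.0048 and 0.077, and Cd36 from 0.99 to 3.67.

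**Figure D3:**
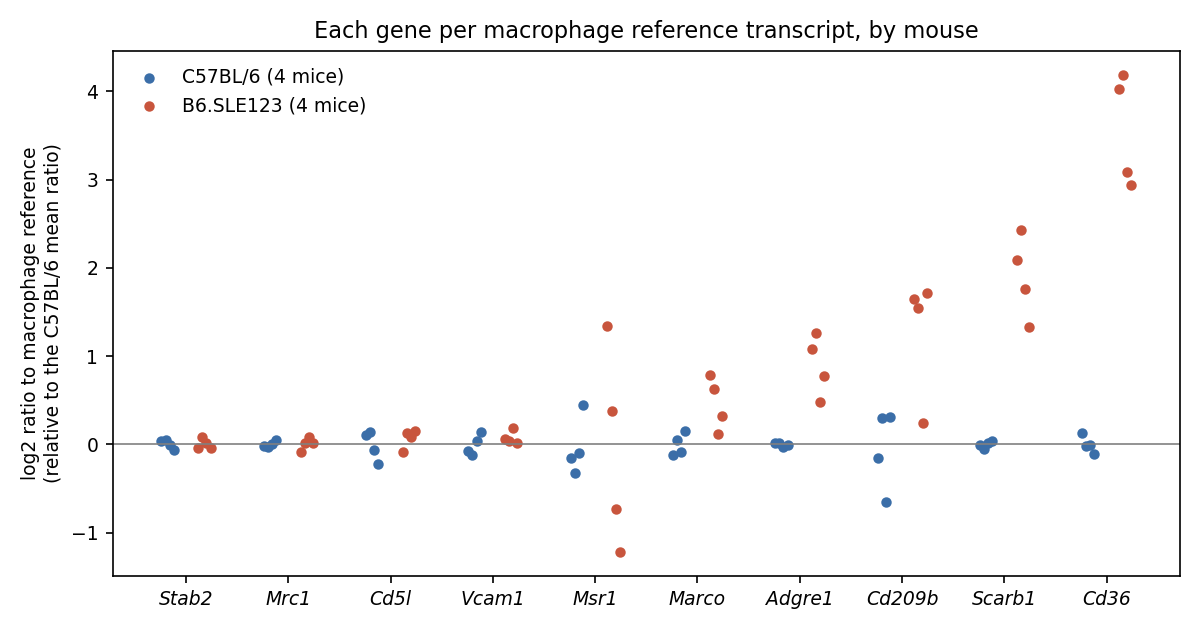
Log2 ratio of each gene to the macrophage reference in each mouse, set against the C57BL/6 mean ratio, for 4 C57BL/6 mice (blue) and 4 B6.SLE123 mice (red). Stab2 and Mrc1 stay near 0 in all 8 mice, Msr1 spreads over the B6.SLE123 mice, and Adgre1, Scarb1 and Cd36 lie above the C57BL/6 mice in every B6.SLE123 mouse.

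Promoters of 4 of the genes that fell and of Cd36, which rose, are shown with motifs of factors known to act in macrophages. Windows from 250 bases before to 50 bases after the RefSeq start (GRCm38.p6) were matched for 6 of the 10 genes, Marco, Mrc1, Cd5l, Stab2, Cd36 and Cd209b. The motifs were the ETS core GAGGAAG, of the kind that PU.1 and SPI-C bind, the nuclear receptor element AGGTCA and the MAF element TGCTGAC, each searched on both strands. They are in capitals below, read on the strand of the gene, so that a motif on the other strand appears as its reverse complement. The sequences are those of Cd5l (chr3:87357631-87357930, plus strand), Marco (chr1:120504975-120505274, minus strand), Mrc1 (chr2:14229164-14229463, plus strand), Stab2 (chr10:87007893-87008192, minus strand) and Cd36 (chr5:17835847-17836146, minus strand).
Cd5l: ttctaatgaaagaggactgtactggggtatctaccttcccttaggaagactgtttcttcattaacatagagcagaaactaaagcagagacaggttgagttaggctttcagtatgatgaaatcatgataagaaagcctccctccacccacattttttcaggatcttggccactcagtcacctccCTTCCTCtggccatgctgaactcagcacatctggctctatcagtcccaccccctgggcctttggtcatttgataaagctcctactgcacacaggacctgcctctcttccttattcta
Marco: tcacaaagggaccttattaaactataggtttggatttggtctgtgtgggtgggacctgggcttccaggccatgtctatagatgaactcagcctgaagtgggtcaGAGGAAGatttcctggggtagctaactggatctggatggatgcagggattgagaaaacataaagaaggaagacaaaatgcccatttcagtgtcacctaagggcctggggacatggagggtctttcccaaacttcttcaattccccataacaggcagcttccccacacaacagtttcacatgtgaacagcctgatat
Mrc1: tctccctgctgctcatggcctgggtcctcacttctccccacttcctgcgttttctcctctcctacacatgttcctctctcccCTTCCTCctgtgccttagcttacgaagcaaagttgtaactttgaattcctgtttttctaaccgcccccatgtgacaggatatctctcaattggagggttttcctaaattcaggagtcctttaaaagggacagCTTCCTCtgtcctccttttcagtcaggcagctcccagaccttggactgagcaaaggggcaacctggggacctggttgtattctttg
Stab2: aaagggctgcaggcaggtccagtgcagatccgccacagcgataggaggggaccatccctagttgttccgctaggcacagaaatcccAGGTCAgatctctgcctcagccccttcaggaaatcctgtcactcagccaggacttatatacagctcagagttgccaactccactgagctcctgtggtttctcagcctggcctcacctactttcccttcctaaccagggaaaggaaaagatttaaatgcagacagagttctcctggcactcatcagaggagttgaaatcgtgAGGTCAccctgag
Cd36: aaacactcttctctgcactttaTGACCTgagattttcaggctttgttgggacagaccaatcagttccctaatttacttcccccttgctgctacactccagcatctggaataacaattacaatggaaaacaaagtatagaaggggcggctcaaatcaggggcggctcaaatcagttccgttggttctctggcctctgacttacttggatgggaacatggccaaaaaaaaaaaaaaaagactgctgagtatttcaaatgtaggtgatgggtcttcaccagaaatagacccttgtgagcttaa
Marco held GAGGAAG from position -146, counted from the start site. Cd5l held it on the other strand from -67, and Mrc1 on the other strand from -168 and from -36. Over 32851 promoters of the same length, 13.6% held this motif. Stab2 held AGGTCA from -164 and from 37, and Cd36 held it on the other strand from -228, a motif found in 16.3% of promoters. The window of Cd209b had none of the motifs, and TGCTGAC, found in 4.67% of promoters, was in none of the 6 windows. The RefSeq start of Cd36 lies inside the annotated gene, and the bases after it are in no Cd36 transcript of GENCODE M21, so this window belongs to another start than those annotated there.

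By the root mean square difference between centred log2 CPM profiles over the 8 mice, the gene most like each of the 10 was sought among 10145 genes with a mean of at least 5 CPM. The nearest was Itgad for Mrc1 (0.050), Mrc1 for Stab2 (0.068), C1qc for Vcam1 (0.057) and Stab2 for Cd5l (0.10), so Stab2 and Cd5l each had another of the 10 as their nearest gene. The next nearest to Cd5l were Igf1 (0.11) and Clec1b (0.11). For Marco the nearest 3 were Pilra (0.094), Dlc1 (0.10) and Prxl2b (0.11). Adgre1 was nearest to 6720489N17Rik (0.072), Scarb1 to Tfcp2 (0.053) and Cd36 to P3h2 (0.076). Cd209b (0.27, to Kcnip3) and Msr1 (0.44, to Mtus1) had no close neighbour. Both had few reads, so counting error adds to their distances, and Cd209b itself had a mean below 5 CPM. These distances describe 8 mice in 2 strains and carry the strain difference itself.

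Mtus1, the gene nearest to Msr1 in profile, starts 1.41 Mb from it on chromosome 8, and the genes around Msr1 were therefore read as well, a choice made after values had been seen. Of 12 genes in the table within 2 Mb, 6 were lower and 2 higher, against 26.6% and 26.7% of all genes. Slc7a2, a transporter of cationic amino acids 1.28 Mb away, was at 38.1, 34.5, 40.6 and 35.2 CPM in C57BL/6 and at 3.86, 1.53, 0.444 and 0.433 CPM in B6.SLE123 mice. Its log2 fold change was -4.54 (SE 0.40, adjusted p = 4.52e-06, edgeR). Mtus1 was at 11.2, 18.1, 17.7 and 15.9 CPM against 7.78, 3.95, 2.75 and 2.95 CPM. Asah1, the acid ceramidase gene 1.76 Mb away, was at 317, 300.0, 331 and 334 CPM against 237, 194, 153 and 143 CPM. In Msr1, Slc7a2, Mtus1 and Asah1, B6.SLE123 replicate 1 was the highest of its strain and replicate 2 the next. These were 4 of the 7 genes called lower here, Msr1 included, and 4.22% of all genes called lower had this order. The order was read from Msr1, and Mtus1 was found by its likeness to Msr1. Their shared order thus follows largely from the choice, and the share over all genes cannot measure an excess here. Micu3, Zdhhc2 and Pdgfrl, also lower, had another order, and replicate 1 was the lowest in Tusc3, Vps37a, Mtmr7 and Pcm1, in Pcm1 only by 94.03 against 94.04 CPM in replicate 4.

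The macrophage reference had another order in the same mice, with replicate 4 highest and replicate 2 lowest. Relative to the macrophage reference, Slc7a2 was lower in B6.SLE123 mice (log2 -1.79, adjusted p = 1.65e-09, edgeR), as 0.377% of all genes were. What sets replicate 1 apart in Msr1, Slc7a2, Mtus1 and Asah1 was not tested. Around Cd209b, on the same chromosome, 15 of 33 genes within 2 Mb were lower and 3 higher, and around Cd5l 18 of 65 were lower and 16 higher. The shares over all genes were 26.6% lower and 26.7% higher.

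**Figure D4:**
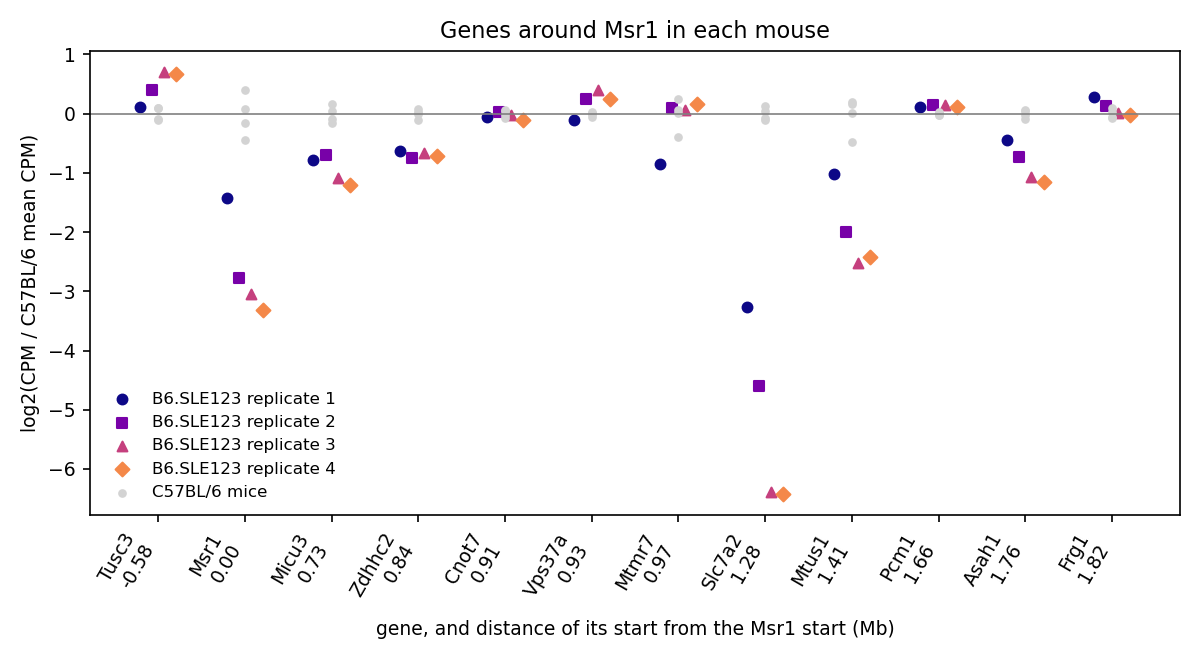
Log2 of CPM over the C57BL/6 mean for Msr1 and the genes within 2 Mb with a C57BL/6 mean of at least 2 CPM, in order along the chromosome, with the distance from the Msr1 start in Mb; the B6.SLE123 mice have a symbol each and the C57BL/6 mice are grey. B6.SLE123 replicate 1 lies above replicates 2, 3 and 4 in Msr1, Zdhhc2, Slc7a2, Mtus1, Asah1 and Frg1. It is the lowest of its strain in Tusc3, Vps37a, Mtmr7 and Pcm1. The gap is small in Zdhhc2 (9.46 CPM against 9.17 CPM in replicate 3) and in Pcm1 (94.03 CPM against 94.04 CPM in replicate 4).

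Other receptors of the same kinds were read from lists of names. Of 17 other scavenger receptor and scavenger receptor cysteine-rich genes in the table, 8 were lower, 2 were higher and 7 did not pass the test. Cd163, the hemoglobin-haptoglobin receptor of red pulp macrophages, went from 355 ± 61.7 to 67.3 ± 23.8 CPM (SD, n = 4), a log2 fold change of -2.40 (SE 0.22, adjusted p = 7.71e-06, edgeR). Lrp1, an endocytic receptor of the low-density lipoprotein receptor family, fell by 1.94 on the log2 scale, Scarf2 by 1.49, and Lgals3bp by 1.05. Scarf1 (-0.98), the lysosomal glycoprotein genes Cd68 (-0.96) and Scarb2 (-0.63), and Ager (-0.49) were lower by less than 2-fold. Cd5, a lymphocyte receptor with the same domains as Cd5l (log2 0.52), and Cxcl16 (0.44) were higher. Stab1, the relative of Stab2, was at 5.47 ± 0.83 and 4.86 ± 0.88 CPM and did not pass (log2 -0.18, adjusted p = 0.343, edgeR).

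Of 8 other uptake lectins in the table, 3 were lower, 1 was higher and 4 did not pass. Siglec1, the sialic acid receptor of metallophilic macrophages, was at 109 ± 13.9 CPM in C57BL/6 and 32.2 ± 11.9 CPM in B6.SLE123 mice (log2 -1.77, SE 0.21, adjusted p = 4.92e-05, edgeR). In the Cd209 family, Cd209a (-0.66) and Cd209c (-0.89) were lower, and Cd209d (0.061) and Cd209e (-0.047) did not pass. These genes resemble each other, so reads may be split between them. Ly75, the DEC-205 receptor of dendritic cells in the same family as Mrc1, was higher, with 70.5 ± 5.16 and 145 ± 16.3 CPM (log2 1.04, SE 0.081, adjusted p = 2.22e-06, edgeR). Over both lists, 11 of 25 genes were lower and 3 were higher, against 26.6% and 26.7% of all genes.

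**Figure D5:**
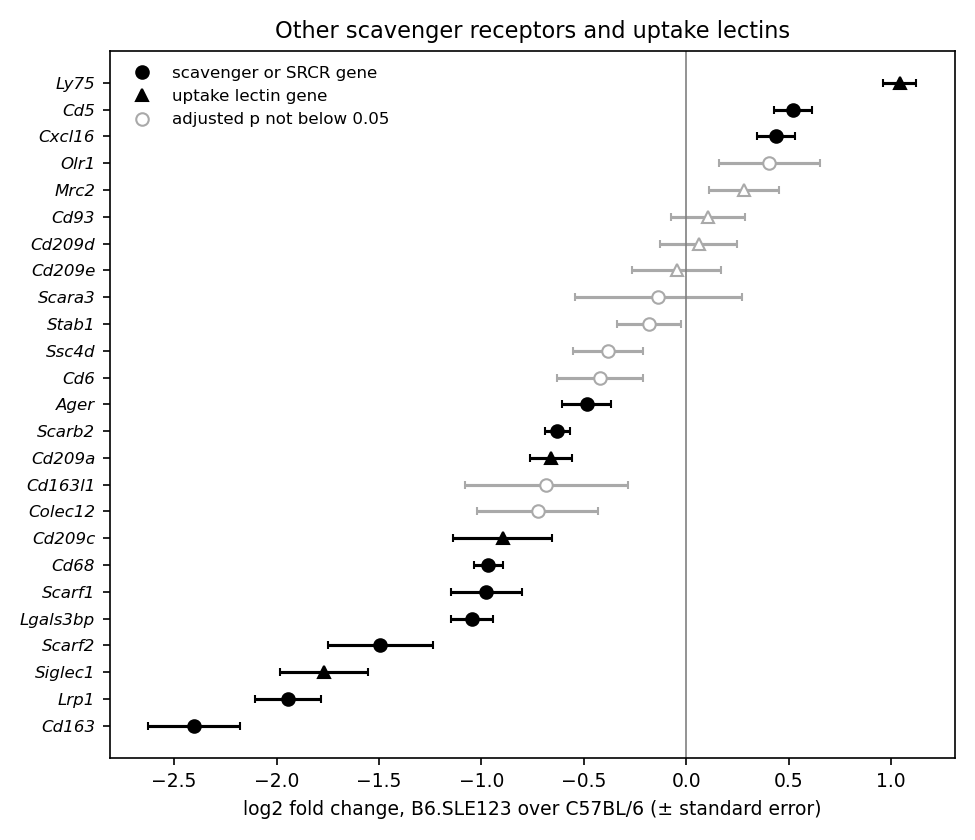
Log2 fold change with its standard error for the 25 other scavenger receptor genes (circles) and uptake lectin genes (triangles), with open grey symbols where the adjusted p was not below 0.05. Cd163 lies lowest at -2.40 and Ly75 highest at 1.04.

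Of 13 ligands and partners of these receptors in the table, 9 were lower, 2 were higher and 2 did not pass. The shares over all genes were 26.6% lower and 26.7% higher. Apoe, an apolipoprotein that such receptors take up, went from 2197 ± 134 to 321 ± 99.0 CPM (SD, n = 4), a log2 fold change of -2.77 (SE 0.19, adjusted p = 1.04e-06, edgeR). The integrin genes split: Itgad (-2.59) and Itga9 (-2.25) fell, Itga4 (0.39) and Itgb7 (0.21) rose, and Itgb1 (-0.017) did not pass. Adgre4, a relative of Adgre1, fell by 2.08 on the log2 scale, and Adgre5 (0.033) did not pass. Tlr4, the receptor for lipopolysaccharide, fell by 1.77, and Tlr2 (-0.40) and Tlr6 (-0.30), which cooperate with Cd36, were lower by less than 2-fold.

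Among 11 transcription factor genes known to act on this program, 8 were lower, 1 was higher and 2 did not pass, against 26.6% lower and 26.7% higher over all genes. Of the 8, 6 fell by more than 2-fold and the rest by less. Spic (-2.73), Maf (-2.48) and Nr1h3 (-2.41), the last encoding liver X receptor alpha, fell about as far as Cd5l, Stab2 and Mrc1. Pparg (-1.91), the fatty acid sensor known to induce Cd36, and Rxra (-1.59), the partner of both nuclear receptors, were lower. Whether these transcripts and those of Cd36 came from the same cells was not tested. Spi1, which encodes PU.1, was at 409 ± 17.2 CPM in C57BL/6 and 451 ± 12.9 CPM in B6.SLE123 mice (log2 0.14, SE 0.043, adjusted p = 0.0169, edgeR). Nr1h2 (-0.035), encoding liver X receptor beta, and Bach1 (0.077) did not pass.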

How the data were processed

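CD11c-positive splenocytes of 4 C57BL/6 and 4 B6.SLE123 mice were sequenced from poly(A) libraries made with a stranded kit. According to the methods and the submitters' processing notes, cutadapt was used for trimming, STAR for alignment to mm10 and featureCounts for counting. The authors deposited raw counts for 13786 protein-coding genes; versions and the strand setting are not given in the sources used here. The deposited table also holds the authors' DESeq2 comparison (mean normalized signal, log2 fold change and its standard error, test score, p-value, adjusted p-value and fold change as a ratio), which was not used. For 21 genes whose symbols read as dates, the symbol was looked up by gene identifier. Strain was taken from the sample names, because the genotype labels count up from mouse to mouse.

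The strains were compared in R 4.3.3 by the quasi-likelihood F test of edgeR 4.0.16 after TMM scaling, unfiltered, with Benjamini-Hochberg adjustment over 13786 genes. CPM values are TMM-scaled, and log2 CPM used a prior count of 2. For values relative to the macrophage reference, the library size was replaced by the geometric mean count of 6 genes. No pair of mice of a strain agreed within sampling noise (chi-square per degree of freedom 4.96 to 18.9), and nothing states that the mice shared a litter or batch. On simulated data with 200 of 13786 genes changed between 4 and 4 mice, the test recovered 94% of 1.5-fold and 96% of 2-fold changes, with 8 of 203 calls false. The changed genes were drawn without those of low counts. In the real data 53.4% of genes were called, so the simulation does not measure false calls under so broad a difference. Totals of 25563070 to 37367094 counts leave counting error small except for Msr1 and Cd209b.

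The genes followed and all gene lists were chosen with earlier results of these data known. The genes named are the 10, members of the lists of other receptors, ligands and partners, regulators and reference genes, the most abundant gene of each marker list, and the nearest gene in profile (3 for Cd5l and Marco); a promoter was printed for Cd5l and where a motif was found. For 1 gene counted among the regulators, its own result is not reported here. The genes around Msr1 were named after their values were seen. Gene positions (mm10) were read from the table and were the same in GENCODE M21 for all 10. Alternatives were relative log expression factors, no factors, at least 10 counts in every sample, a replicate block, DESeq2 1.42.0, limma-voom (limma 3.58.1), C1qa, C1qb and C1qc or 4 genes as the reference, and each mouse left out in turn.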

Additional observations from a re-analysis of the deposited data

Results flagged for a closer look

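In 78 groups of 4 mice (levels of the 10 genes, their ratios to the macrophage reference and mean levels of gene lists), 1 mouse stood apart from the other 3 of its strain in 3, where chance gives about 1 in 20, or 3.9. The log2 ratio of Cd209b to the macrophage reference, in percent, was 0.083 in B6.SLE123 replicate 3, against a median of 1.44 in that strain. Without that mouse Cd209b differed from the reference by 1.64 on the log2 scale (adjusted p = 3.90e-07, edgeR), in place of 1.39. The mean log2 CPM of the uptake lectin list was 3.67 in B6.SLE123 replicate 2, against a median of 4.06. The mean log2 CPM of the neutrophil list was -1.08 in B6.SLE123 replicate 3, against a median of 0.25.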

How the results depend on the processing

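The 10 direct log2 fold changes kept their direction and their call under all 14 alternatives, 140 of 140 values. The count of genes lower stayed at 9, the count lower by more than 2-fold ranged from 7 to 8 with a mouse left out (7 without B6.SLE123 replicate 3), and 10 to 12 other receptors were lower over all alternatives. Relative to the macrophage reference, 4 to 5 genes differed, Marco being the fifth. Differences near 0 changed sign without passing the test. With C1qa, C1qb and C1qc as the reference they were -0.18 for Cd5l, -0.24 for Mrc1, -0.24 for Stab2 and -0.16 for Vcam1. Without Slc40a1 and Hmox1 in the reference they were -0.026 for Mrc1 and -0.030 for Stab2, and Msr1 was at -0.074 by limma-voom. With each mouse left out they ranged from -0.016 to 0.038 for Mrc1, from -0.021 to 0.020 for Stab2 and from -0.39 to 0.55 for Msr1. The cause was not tested, except that Msr1 turned only with B6.SLE123 replicate 1 left out or by limma-voom.

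Mice of the strains share replicate numbers in their names. Same-numbered mice deviated together with correlations of 0.076 to 0.24, not all over 0.1, and 6 of 8 mice correlated best with their own number. With the number as a replicate block, 9 genes were lower, 8 by more than 2-fold, 4 differed from the reference, and 12 in place of 11 other receptors were lower. Msr1, with 25 to 115 reads in B6.SLE123 mice, and Cd209b, with 50 to 121, had the widest intervals of the direct fold changes.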

Other observations

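The gene of the platelet list with the highest level, Clec1b, was at 45.7 ± 6.11 CPM in C57BL/6 and 8.71 ± 2.35 CPM in B6.SLE123 mice (SD, n = 4). Its log2 fold change was -2.40 (SE 0.17, adjusted p = 1.04e-06, edgeR's quasi-likelihood test), and relative to the macrophage reference it was 0.15 (adjusted p = 0.602, edgeR). It was the third gene in likeness to Cd5l. The other 3 platelet genes in the table, Ppbp, Itga2b and Gp9, named after their values were seen, were each at a mean of 1.84 CPM or less in both strains and did not pass the test.

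Marker genes of other cells were read from their lists, where the shares over all genes were 26.6% lower and 26.7% higher. Of 5 marginal zone B cell genes, 3 were lower and 2, with Dtx1 the most abundant, were higher. Of 5 B cell genes, 4 were lower. Of 6 monocyte genes, 1 was lower and 5 did not pass, and of 6 neutrophil genes, 1 was lower and 2 were higher. Of 7 erythroid genes, 6 were lower, with a summed level of 37.8 to 163 CPM in C57BL/6 and 2.63 to 18.0 CPM in B6.SLE123 mice. Among dendritic cell subsets, 4 of 6 type 1 conventional genes were higher and 1 lower, 1 of 6 type 2 genes was higher and 1 lower, and 1 of 6 plasmacytoid genes was higher and 2 lower.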
